A study of Mus musculus with 2 samples.

Results

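The macrophage receptor and lineage genes described here are 35 genes, named by symbol, of the 23924 gene symbols in a table of RNA recovered with an antibody against nucleolin. They were taken as listed, the transcript rows of each symbol were summed, and they were set in 4 role groups: 9 pattern and scavenger receptors, 9 Fc receptors, adaptors and other signalling proteins, 4 lineage regulators, and 13 adhesion, membrane and effector proteins. The nucleolin library (1 sample) holds the anti-nucleolin immunoprecipitate (the nucleolin IP) and the IgG library (1 sample) the control immunoprecipitate (the IgG IP), both from nuclear extracts of RAW 264.7, a mouse macrophage cell line. In both, the cells were depleted of mRrp6, a ribonuclease of the nuclear exosome, and had received LPS (bacterial lipopolysaccharide) at 80 ng/ml for 12 h. No undepleted or unstimulated cells, no input RNA and no second library of either kind were analysed, so nothing measures the spread between replicates, and neither tests nor p-values are given. Both libraries come from 1 cell line, and how mRrp6 was depleted is not stated in the labels.

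Macrophages sense bacteria through pattern receptors. CD14 takes up LPS and hands it to TLR4 and its partner MD-2, and scavenger receptors bind modified lipoproteins and particles. Fc receptors bind antibody-coated particles and, like TREM2, signal through small membrane adaptors that carry a tyrosine activation motif called ITAM. The transcription factor PU.1, encoded by Spi1, and the receptor for the growth factor CSF1 set the lineage. Nucleolin is an RNA-binding protein concentrated in the nucleolus, and the series asked which transcripts it is bound to.

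Of the 35 genes, 21 were listed at 0.1 FPKM or more in the nucleolin IP and 11 in the IgG IP (FPKM are fragments scaled to transcript length in kilobases and to the mapped fragments of the library). Of all genes, 7.23% were listed in the nucleolin IP and 8.4% in the IgG IP. Of the 22 members measured in either, 10 were in both libraries (16.8% of all 3194 genes compared were), 11 in the nucleolin IP alone (37.1% of all) and 1, Ms4a6d, in the IgG IP alone (46% of all). The remaining 13 were at 0 in both. The 13 were Tlr2, Marco, Fcgr3, Fcgr2b, Sirpa, Ptprc, Emr1, Itgb2, Cd44, Cd52, Ms4a6c, Aif1 and Cyba. These include genes that define the lineage, such as Ptprc (the leukocyte antigen CD45), Emr1 (the F4/80 antigen, now Adgre1) and Itgb2 (the beta chain of the leukocyte integrins). Housekeeping genes such as Tbp were also listed at 0 in 1 of the libraries, so a 0 here is not read as absence. In RNA immunoprecipitated from pooled cells, fewer cells with a transcript, less RNA per cell and lower recovery cannot be told apart. The 22 measured members passed the minimum of 1 FPKM in at least 1 library.

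Among these 22, 12 members were higher by 2-fold or more in the nucleolin IP and 6 were lower by that much, on the scale log2(FPKM + 1), against 37.8% higher and 56.7% lower among all 3194 genes compared. Of the 12, all but Cd53 were at 0 in the IgG IP, where no fold is given. Among the 10 members listed in both libraries, 1 was higher (Cd53) and 5 were lower (Cd68, Tyrobp, Spi1, Mpeg1 and Cybb), against 3.72% and 63.6% of the 538 genes listed in both. The median log2 ratio was 1.65 over the 22 members, against -1.27 over all genes compared. The median over the 22 depends on the pseudocount, since 12 of them were at 0 in 1 of the libraries. Over the 10 in both it was -0.94, against -1.19 over the 538. With the IgG values scaled so that 1 read counted the same in both libraries, 14 members were higher and 2 lower, against 40.2% and 46.8% of all genes. The summed FPKM of the 35 genes was 758 in the nucleolin IP and 857 in the IgG IP, a log2 ratio of -0.18 that became 1.09 when centred on the median of all genes.

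**Figure D1:**
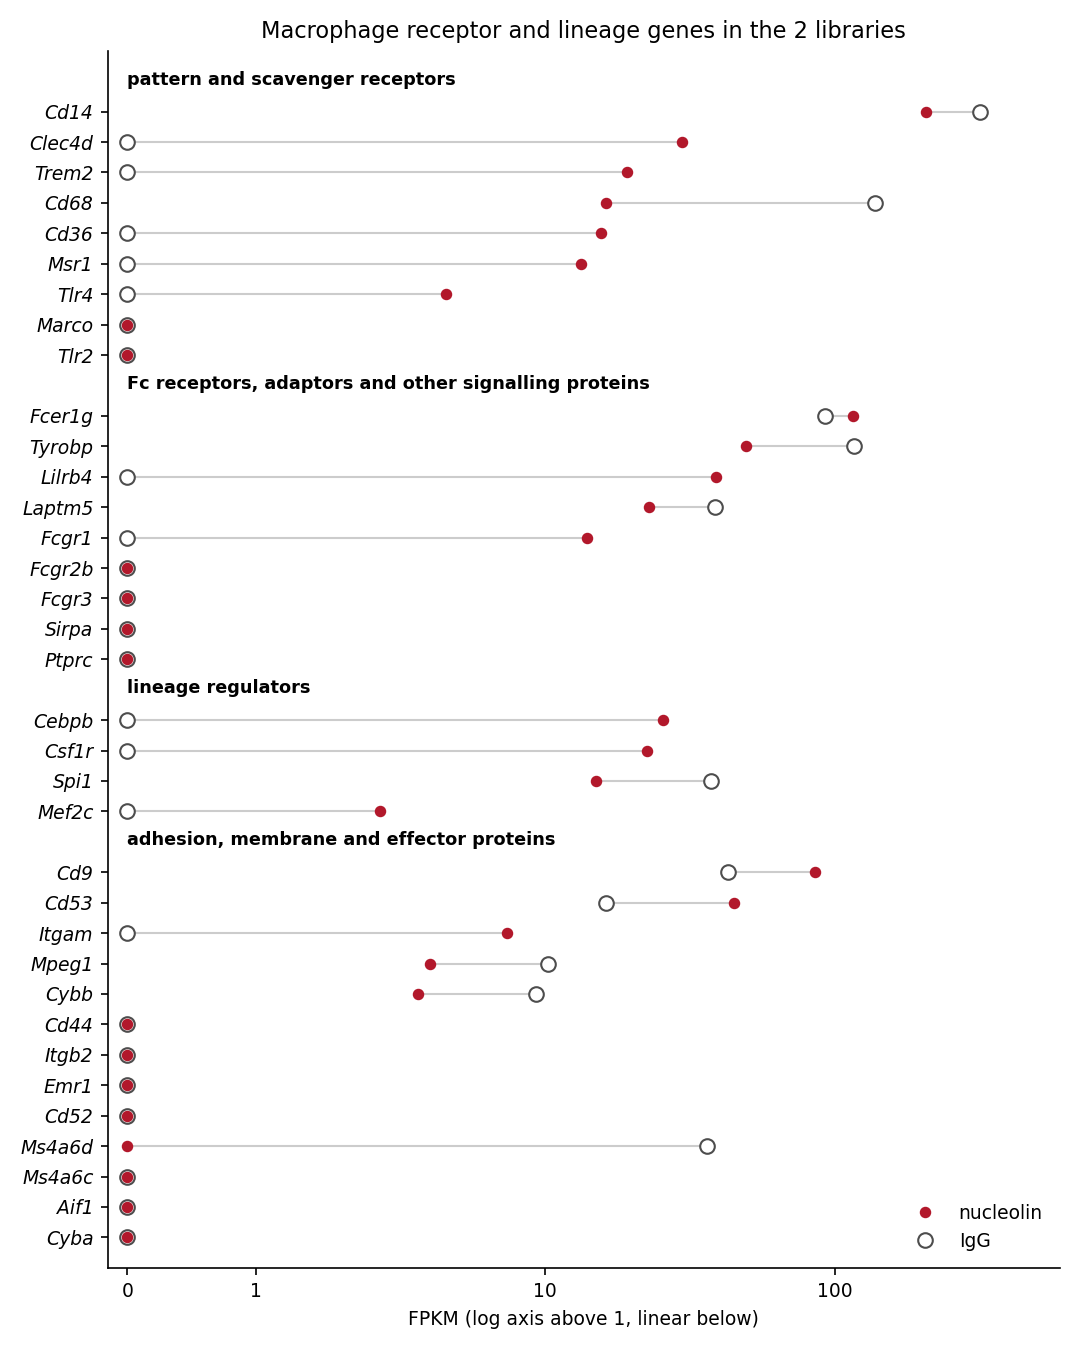
FPKM of each of the 35 genes by role group (horizontal axis, logarithmic above 1 FPKM and linear below), with the nucleolin library as filled red circles and the IgG library as open circles. In 11 genes only the nucleolin value lies above 0, in Ms4a6d only the IgG value, and in 13 both lie at 0.

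The depth behind these values could be read from the table. Of the 369 genes with 1 transcript row listed in both libraries, 149 had pairs of FPKM values on a single curve, the one that equal numbers of fragments give. The spacing of the values along it, which follows from transcript lengths being whole numbers of bases, gave 60896 mapped fragments for the nucleolin library and 23669 for the IgG library. These are the totals that the FPKM scaling implies, and they were not checked against read totals from the authors. From this, each value was turned into the smallest whole number of fragments that gives a whole transcript length, for 2044 (92.8%) of the 2203 listed genes with 1 row. Of the resolved genes listed in a library, 71.7% in the nucleolin IP and 76.7% in the IgG IP had 1 fragment. One fragment per kilobase of usable transcript was worth 16.4 FPKM in the nucleolin IP and 42.2 FPKM in the IgG IP, so that equal fragments appear as a log2 FPKM ratio of -1.36.

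Of the 22 measured members, 17 could be resolved in this way. They held 54 fragments in the nucleolin IP and 23 in the IgG IP. Cd14 alone held 33.3% of the nucleolin fragments and 47.8% of the IgG fragments, and 7 members had no more than 1 fragment in either library. The ratios below divide a gene's share of all mapped fragments in the nucleolin IP by its share in the IgG IP, with exact (Clopper-Pearson) 95% intervals. The intervals cover counting error only, since amplified fragments are not independent molecules. The interval held 1 for 17 of the 17 members, which does not show that the libraries are alike.

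**Figure D2:**
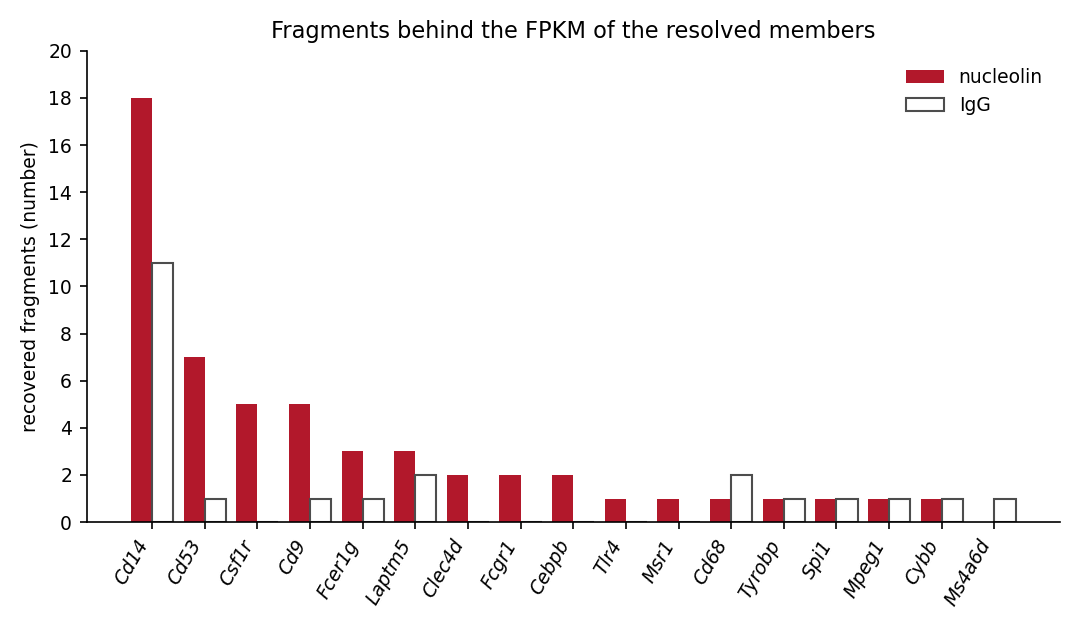
Number of fragments recovered for each of the 17 resolved members (vertical axis, linear from 0), with the nucleolin library as red bars and the IgG library as open bars. Cd14 stands above the others with 18 and 11 fragments, and most of the other bars stand at 1 or 2 fragments.

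Among the 9 pattern and scavenger receptors, 7 were measured, 7 in the nucleolin IP and 2 in the IgG IP, and 5 were higher and 1 lower in the nucleolin IP. Beside this role group and each that follows stand the shares of all 3194 genes compared, 37.8% higher and 56.7% lower. Members at 0 in the IgG IP passed the minimum through the nucleolin IP alone. Cd14, the LPS co-receptor (chr18:36725064-36726815, GRCm38.p6), was at 207 FPKM in the nucleolin IP and 319 FPKM in the IgG IP. It was the highest member of the whole set in both, and ranked 18th of the genes listed in the nucleolin IP and 33rd in the IgG IP. Its 18 nucleolin and 11 IgG fragments, on a transcript of 1661 bases, gave a share ratio of 0.636 (95% interval 0.284 to 1.49). The FPKM difference was less than 2-fold, and its log2 ratio of -0.62 became 0.65 when centred on the median of all genes.

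Cd68, a lysosomal glycoprotein of the scavenger receptor family (chr11:69664213-69666170), was at 16.2 FPKM in the nucleolin IP and 138 FPKM in the IgG IP, a log2 ratio of -3.02. The value rested on 1 nucleolin fragment and 2 IgG fragments (share ratio 0.194, interval 0.00329 to 3.73). They were assigned to different transcripts: the nucleolin value lay wholly on the coding row, and 99.9994% of the IgG value lay on a row annotated as non-coding. The Cd68 values of the 2 libraries are therefore scaled by different transcript lengths.

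The other 5 measured receptors were listed in the nucleolin IP and at 0 in the IgG IP. Clec4d, a C-type lectin of myeloid cells, was at 29.8 FPKM from 2 fragments. Tlr4, the LPS receptor (chr4:66827551-66846581), was at 4.55 FPKM from 1 fragment on 3846 bases, and Msr1, the class A scavenger receptor, at 13.3 FPKM from 1 fragment. Each of these is a small count: 1 fragment in the nucleolin IP corresponds to 0.389 expected fragments in the IgG IP at the same share. Trem2, a lipid-sensing receptor, was at 19.2 FPKM and Cd36, a fatty acid and lipoprotein receptor, at 15.6 FPKM. Their fragments were not resolved, because the values are split over 2 and 5 transcript rows. One row held 99.8% of the Trem2 value and 98.7% of the Cd36 value.

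The Fc receptors, adaptors and other signalling proteins had 5 of 9 members measured, 5 in the nucleolin IP and 3 in the IgG IP, with 2 higher and 1 lower in the nucleolin IP. Both small ITAM adaptors were in both libraries. Fcer1g, the common gamma chain of the activating Fc receptors (chr1:171229572-171234349), was at 116 FPKM in the nucleolin IP and 92.8 FPKM in the IgG IP, from 3 and 1 fragments (share ratio 1.17, interval 0.0936 to 61.2). Tyrobp, which encodes DAP12, the adaptor of TREM2, was at 49.4 FPKM in the nucleolin IP and 116 FPKM in the IgG IP. It had 1 fragment in each, so its log2 ratio of -1.22 is the value that equal fragments give on a transcript of 566 bases. Both adaptors have short transcripts (658 bases for Fcer1g), on which 1 fragment is worth many FPKM.

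Fcgr1, the high-affinity IgG receptor that uses the gamma chain, was at 13.9 FPKM from 2 fragments in the nucleolin IP and at 0 in the IgG IP. The low-affinity receptors Fcgr3 and Fcgr2b, of which Fcgr2b is inhibitory, were at 0 in both. Lilrb4, an inhibitory leukocyte receptor listed as Lilrb4a in RefSeq, was at 39.0 FPKM in the nucleolin IP, split 69.1% and 30.9% over 2 rows, and at 0 in the IgG IP. It was the highest of the members listed only in the nucleolin IP. Laptm5, a lysosomal membrane protein of leukocytes, was at 22.8 FPKM in the nucleolin IP and 38.5 FPKM in the IgG IP, from 3 and 2 fragments (share ratio 0.583, interval 0.0668 to 6.98). Ptprc, a receptor phosphatase, and Sirpa, an inhibitory receptor for CD47, were at 0 in both.

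The 4 lineage regulators were all listed in the nucleolin IP and 1 in the IgG IP, and 3 were higher and 1 lower in the nucleolin IP. Spi1 (chr2:91082374-91115759) was at 14.9 FPKM in the nucleolin IP and 37.4 FPKM in the IgG IP, from 1 fragment in each, and its log2 ratio of -1.27 vanished on centring. Csf1r, the receptor for CSF1 and for interleukin 34 (chr18:61105572-61131139), was at 22.6 FPKM in the nucleolin IP and 0 in the IgG IP. Its 5 fragments on 3875 bases were the most of any resolved member at 0 in the IgG IP. Cebpb, a transcription factor of activated macrophages (chr2:167688915-167690432), was at 25.6 FPKM from 2 fragments, against 0 in the IgG IP. Mef2c, a transcription factor also known in muscle, was at 2.69 FPKM over 2 rows, against 0 in the IgG IP. The 3 resolved regulators together had 8 fragments in the nucleolin IP and 1 in the IgG IP.

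A count of 0 among the 23669 fragments of the IgG IP allows a share of up to 3 fragments. A member would need about 7.72 fragments in the nucleolin IP to reach that share. None of the 6 resolved members listed only there did, Csf1r being the highest with 5 fragments, so no lower bound on a fold is given for them. For Lilrb4, Trem2, Cd36, Itgam and Mef2c this was not judged, because their fragments were not resolved. In the other direction, the single IgG fragment of Ms4a6d is a smaller share than a count of 0 among the 60896 fragments of the nucleolin IP allows.

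Of the 13 adhesion, membrane and effector genes, 6 were measured, 5 in each library, and 2 were higher and 3 lower in the nucleolin IP. Both tetraspanins had higher values in the nucleolin IP, Cd53 by over 2-fold. Cd9 had an FPKM ratio of 2.01 and a log2 ratio of 0.99 with the pseudocount of 1, so it was not counted as higher, and with a pseudocount of 0.1 it was. Cd53, a leukocyte tetraspanin (chr3:106758861-106790149), was at 44.8 FPKM in the nucleolin IP and 16.3 FPKM in the IgG IP, a log2 ratio of 1.41, from 7 and 1 fragments (share ratio 2.72, interval 0.350 to 123). Cd9 (chr6:125460266-125494760), a tetraspanin of many cell types, was at 85.7 FPKM in the nucleolin IP and 42.7 FPKM in the IgG IP, from 5 and 1 fragments (share ratio 1.94, interval 0.217 to 91.9). The lower bounds of both intervals lie below 1.

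Mpeg1, which encodes the pore-forming protein perforin-2 of macrophages, was at 4.00 FPKM in the nucleolin IP and 10.2 FPKM in the IgG IP. Cybb, the catalytic subunit of the phagocyte NADPH oxidase, was at 3.64 FPKM in the nucleolin IP and 9.29 FPKM in the IgG IP. Each had 1 fragment in both libraries, and their log2 ratios of -1.17 and -1.15 are those of equal fragments. Cyba, the other membrane subunit of the oxidase, was at 0 in both. Itgam, the alpha chain of the integrin Mac-1, was at 7.39 FPKM in the nucleolin IP, divided almost evenly (49.9% and 50.1%) between 2 transcript rows, and at 0 in the IgG IP. Ms4a6d, a four-transmembrane protein of macrophages, was at 0 in the nucleolin IP and 36.2 FPKM in the IgG IP, from 1 fragment.

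**Figure D3:**
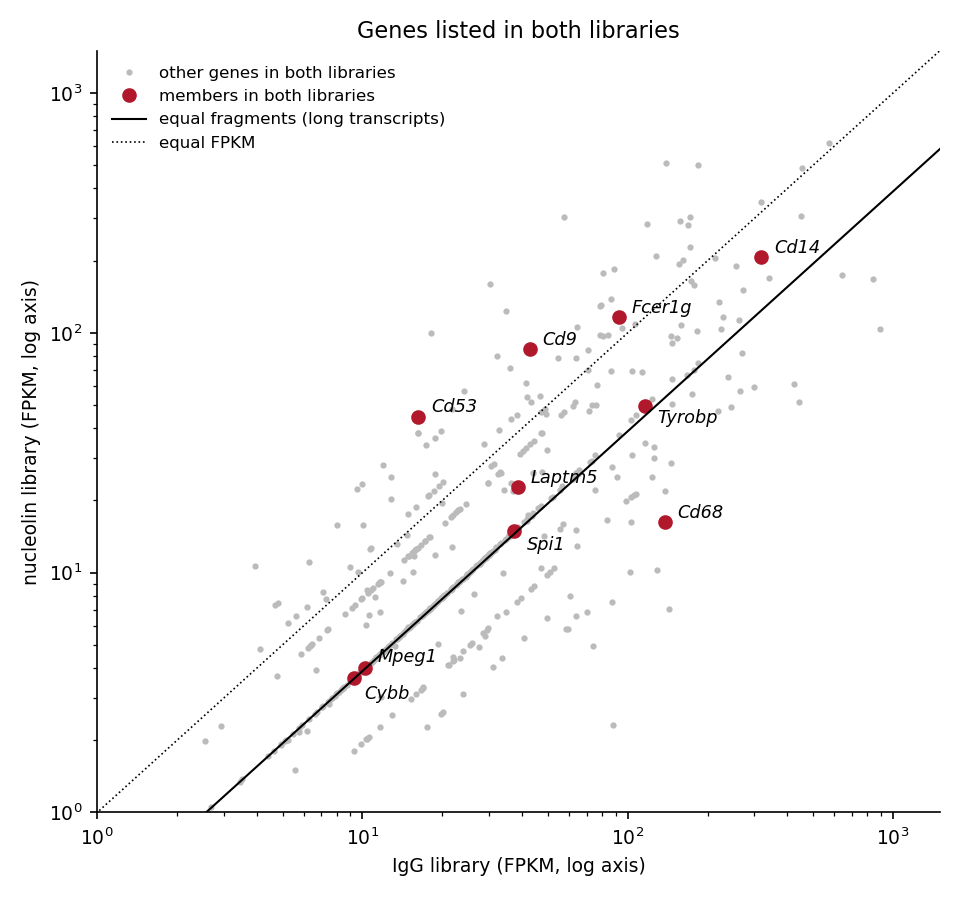
FPKM in the nucleolin IP (vertical axis, logarithmic) against the IgG library (horizontal axis, logarithmic) for genes listed in both, with the 10 members in red, a solid line where equal fragments fall on long transcripts and a dotted line at equal FPKM; 4 of the 538 genes lie outside the range of 1 to 1500 FPKM. Spi1, Mpeg1, Cybb and Tyrobp sit on or just above the solid line, Cd53, Cd9 and Fcer1g lie above the dotted line, and Cd68 is the member below the solid line.

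The 17 resolved members were summed over both denominators. Their 54 nucleolin and 23 IgG fragments were 0.0887% (exact 95% interval 0.0666 to 0.116) of all mapped fragments in the nucleolin IP and 0.0972% (0.0616 to 0.146) in the IgG IP. The 5 unresolved members (Lilrb4, Trem2, Cd36, Itgam and Mef2c) are not in these sums, and all 5 were listed only in the nucleolin IP, so the order of these 2 shares over all members is not settled. Fragments on resolved protein-coding genes numbered 2120 in the nucleolin IP, 3.48% of its mapped fragments, and 2054 in the IgG IP, 8.68%. Of these coding fragments, the resolved members held 2.55% (1.92 to 3.31) in the nucleolin IP and 1.12% (0.711 to 1.68) in the IgG IP. Without Cd14 the shares of coding fragments were 1.70% (1.19 to 2.34) in the nucleolin IP and 0.584% (0.302 to 1.02) in the IgG IP. The coding total leaves out the 1022 listed genes that could not be resolved, among them 9 of the 10 gastric and digestive markers described below. In each of the 4 role groups the share of coding fragments was higher in the nucleolin IP, with overlapping intervals. For the lineage regulators it was 0.377% (0.163 to 0.742) in the nucleolin IP and 0.0487% (0.00123 to 0.271) in the IgG IP. Single libraries give no spread between samples, and these intervals do not include it.

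**Figure D4:**
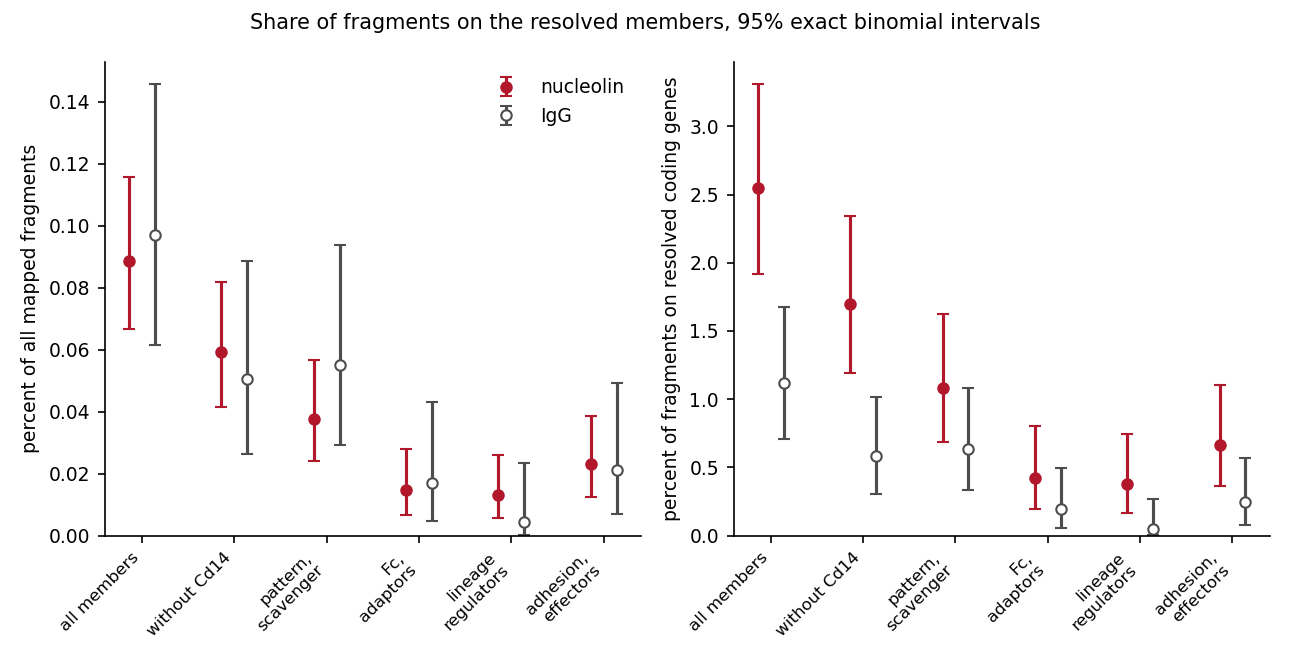
Share of fragments on the resolved members (vertical axes, percent of all mapped fragments on the left and of fragments on resolved coding genes on the right), with exact 95% binomial intervals, nucleolin library in red and IgG library in open grey. For all members the intervals overlap on the left (0.0887% and 0.0972%) and do not overlap on the right (2.55% and 1.12%).

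Markers of other cell types stood beside these values in the IgG IP. Of 8 epithelial markers, 0 were listed in the nucleolin IP and 5 in the IgG IP, with summed FPKM of 0 and 448 for nucleolin and IgG; Krt8, Krt18, Krt19, Krt14 and Cdh1 were listed and Epcam was at 0. Of 10 gastric and digestive markers, 0 were listed in the nucleolin IP and 10 in the IgG IP, with summed FPKM of 0 for nucleolin and 20396 for IgG, set against 857 for the 35 members in the IgG IP. Of 8 fibroblast and smooth muscle markers, 0 were listed in the nucleolin IP and 4 in the IgG IP, with summed FPKM of 0 for nucleolin and 96.7 for IgG, and with Dcn and Pdgfra at 0. Of 8 further macrophage markers, 7 were listed in the nucleolin IP and 4 in the IgG IP, with summed FPKM of 456 and 149. By 2-fold or more, 6 were higher in the nucleolin IP (Lyz2, Coro1a, Lcp1, Lgals3, Cd74 and Plek) and 2 lower. Among all 3194 genes compared, 37.8% were higher and 56.7% lower. Of the 6, all but Lcp1 and Cd74 were at 0 in the IgG IP and passed the minimum through the nucleolin IP alone. Ctss was lower, at 29.2 FPKM in the nucleolin IP and 73.2 FPKM in the IgG IP, and Cotl1 was at 0 and 29.4 FPKM. Lyz2, the lysozyme of myeloid cells, was at 200 FPKM from 10 fragments in the nucleolin IP and at 0 in the IgG IP. The part of these transcripts in the members' values and shares was not tested. Of 3 hepatocyte markers, 0 were listed in the nucleolin IP and 1, Apoa1, in the IgG IP at 215 FPKM. Of T cell markers Lck alone was listed (8.92 FPKM in the nucleolin IP), and no B cell, neutrophil, mast cell, endothelial, erythroid, neuron or dendritic cell marker was listed in either library. Only 6 of 7 T cell, 5 of 6 neutrophil and 2 of 3 erythroid markers were among the gene symbols. A marker without a symbol there could not be listed.

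The genes that work with these receptors were taken as 6 lists of 139 genes in all, of which 36 were measured. Of these, 20 were higher and 11 lower in the nucleolin IP by 2-fold or more, beside 37.8% and 56.7% of all genes compared. All 20 were at 0 in the IgG IP, where no fold is given, and passed the minimum through the nucleolin IP alone. The median log2 ratio was 2.32 over the 36, beside -1.27 over all genes, and -0.73 over the 9 listed in both libraries, beside -1.19 over the 538 genes in both. The median over the 36 depends on the pseudocount, since 20 were listed in the nucleolin IP only and 7 in the IgG IP only. The medians of the single lists carry the same limit. The same shares and medians of all genes stand beside each list that follows. Of 28 Toll-like receptor pathway genes, 4 were higher and 1 lower of 5 measured (median log2 ratio 3.35). Unc93b1, which carries endosomal Toll-like receptors to their compartment, was at 18.7 FPKM, Cd180, a TLR4-related receptor, at 15.7 FPKM from 2 fragments, and Tlr7 at 9.22 FPKM in the nucleolin IP, each with 0 in the IgG IP. Ikbkb, a kinase of the NF-kappa B pathway, was at 0 in the nucleolin IP and 37.4 FPKM in the IgG IP. Ly96 (MD-2), Myd88 and Irak4, core parts of LPS signalling, were at 0 in both.

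Of 32 ITAM and ITIM signalling genes (ITIM is the inhibitory counterpart of ITAM), 7 were higher and 2 lower of 10 measured (median 2.58). Cd47, the ligand of SIRPA, was at 29.3 FPKM from 3 fragments and Ptpn6, the phosphatase SHP-1, at 8.27 FPKM in the nucleolin IP, both with 0 in the IgG IP. Clec4e, the lectin Mincle that pairs with the gamma chain, had 1 fragment in each library, at 7.19 FPKM in the nucleolin IP and 18.2 FPKM in the IgG IP. Siglec1 had 2 nucleolin fragments and 1 IgG fragment, and Fyn, a Src-family kinase, was at 0 in the nucleolin IP and 13.0 FPKM in the IgG IP. Of 6 NADPH oxidase partners, 1 was higher and 1 lower (median 1.38). Rap1a was at 14.8 FPKM in the nucleolin IP and 0 in the IgG IP, and Rac2, a leukocyte GTPase of the oxidase, had 1 fragment in each. Ncf1 and Ncf4, cytosolic subunits of the oxidase, were at 0 in both.

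Of 15 integrins, adhesion molecules and tetraspanins, 3 were higher and 1 lower of 5 measured (median 2.10). Itga5, the fibronectin receptor alpha chain, was at 27.8 FPKM in the nucleolin IP and 30.4 FPKM in the IgG IP, from 7 and 3 fragments. Cd63, a lysosomal tetraspanin, was at 24.7 FPKM and Icam1 at 7.12 FPKM in the nucleolin IP, both with 0 in the IgG IP, and Itgav was at 0 in the nucleolin IP and 6.17 FPKM in the IgG IP. The 20 further myeloid transcription factors had 1 higher and 3 lower of 4 measured (median -3.61). Irf5 was at 16.8 FPKM in the nucleolin IP and 0 in the IgG IP. Klf4, which is also an epithelial factor, was at 5.84 FPKM in the nucleolin IP and 59.5 FPKM in the IgG IP, from 1 and 4 fragments. Irf8 and Id2 were at 0 in the nucleolin IP and at 16.0 and 39.5 FPKM in the IgG IP.

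Of 38 other myeloid surface genes, 10 were measured, 4 higher and 3 lower (median 0.22). Slc11a1, a phagosomal metal transporter, was at 23.8 FPKM in the nucleolin IP and 20.1 FPKM in the IgG IP, from 3 and 1 fragments. C5ar1, the complement C5a receptor, was at 21.9 FPKM in the nucleolin IP and 37.1 FPKM in the IgG IP. Plaur, the urokinase receptor, had 1 fragment in each library, at 14.1 FPKM in the nucleolin IP and 35.4 FPKM in the IgG IP. Gpnmb, a lysosomal glycoprotein, was at 0 in the nucleolin IP and 23.5 FPKM in the IgG IP, from 2 fragments.

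**Figure D5:**
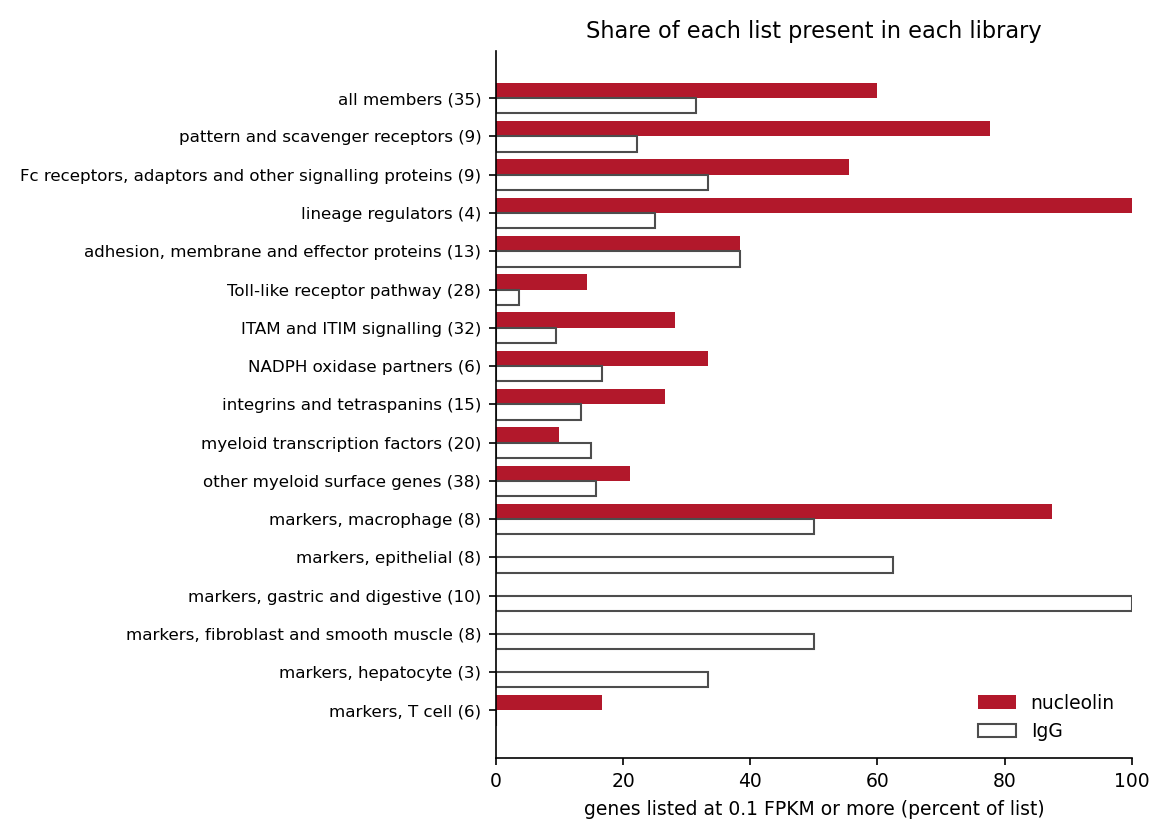
Percent of the genes of each list at 0.1 FPKM or more (horizontal axis, linear from 0), with the nucleolin library as red bars, the IgG library as open bars and the number of genes in brackets. Of the members, 21 are listed in the nucleolin IP and 11 in the IgG IP. The 4 lineage regulators stand at 4 and 1 and the 10 gastric and digestive markers at 0 and 10, for nucleolin and IgG.

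The members are spread over the genome, with Fcgr2b, Fcgr3 and Fcer1g between bases 170960558 and 171234349 of chromosome 1 and Ms4a6c, Ms4a6d and Mpeg1 between 11469353 and 12465285 of chromosome 19. Their promoters were searched for GAGGAA, a core of the sites that PU.1 is known to bind, on both strands of the 250 bases before and 50 after each start, from RefSeq (GRCm38.p6). Of the 35 members 23 had a promoter sequence there, and 14 of these (60.9%) held the motif, against 31.3% of the 27025 genes with a promoter. The longer GAGGAAGT, which contains the first motif, was in 1 of the 23 (Cd53, 4.35%), against 3.69% of all. The match is one of letters, and the RNA values above do not measure binding at promoters. Cd53 (chr3:106790100-106790399, minus strand) and Laptm5 (chr4:130913066-130913365, plus strand) are shown because they hold the motif and were measured in both libraries with more than 1 nucleolin fragment. The capitals mark GAGGAA or its reverse complement.
Cd53: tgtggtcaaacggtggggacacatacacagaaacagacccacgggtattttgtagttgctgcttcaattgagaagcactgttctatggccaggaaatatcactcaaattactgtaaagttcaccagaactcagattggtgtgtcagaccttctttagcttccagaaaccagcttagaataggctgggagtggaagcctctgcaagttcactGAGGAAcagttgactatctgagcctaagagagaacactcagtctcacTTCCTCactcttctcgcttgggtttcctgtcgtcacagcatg
Laptm5: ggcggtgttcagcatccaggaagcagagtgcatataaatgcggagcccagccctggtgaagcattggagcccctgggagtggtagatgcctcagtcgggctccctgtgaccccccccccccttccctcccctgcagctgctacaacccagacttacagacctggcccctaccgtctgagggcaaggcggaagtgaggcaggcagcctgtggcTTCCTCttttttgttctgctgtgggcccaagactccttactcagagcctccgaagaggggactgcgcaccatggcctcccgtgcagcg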

How the data were processed

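The authors deposited 1 table of FPKM values with 33529 transcript rows and 1 column a library, per the file headers. FastQC 0.10.0, Trimmomatic 0.32 and the build mm10 were used, per the submitters' processing notes. Aligner, quantifier, strand use and handling of multi-mapped reads were not given in the sources used here. Of the 2 samples, the one without an IgG label carries a nucleoplasmic RNA title and was taken as the nucleolin one, from the design text and the column name.

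Rows without a symbol (56) were left out and the others summed per symbol. A gene was compared at 1 FPKM or more in either library, by log2((nucleolin FPKM + 1) / (IgG FPKM + 1)), which understates low genes, and values below 0.1 FPKM were taken as not listed. Fold changes of 2 or more were counted. Members, lists and role groups were chosen with earlier results of these data known. Named genes are the 35 members, the 3 highest genes of each pathway list in each library and listed marker genes, less 1 pathway gene not reported here; further genes named at 0 were chosen after their values were seen.

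Fragments were recovered, a step added after seeing the data, by taking FPKM as fragments over the product of library total and transcript length less an offset, with an offset of 234 bases in the nucleolin library and 203 bases in the IgG library. The offsets were those at which most short gene spans equalled the implied length (9 and 22 genes, against 1 at the next best offset in each). A whole length was accepted within 0.01 bases, which chance gives in 2% of trials. For short transcripts in both libraries, such as Fcer1g and Tyrobp, only the IgG length had to meet this, with a looser limit for the nucleolin length. Up to 60 fragments were tried for genes in both libraries and 12 otherwise, on lengths of at least 500 and 700 bases. Where a symbol had several rows, 1 row had to hold 99.9% of its value in each library. The steps were tested on simulated data, which held no transcripts as short as those of Fcer1g and Tyrobp and no symbols with several rows. Tools were scipy 1.17.1, numpy 2.4.6, pandas 2.3.3, matplotlib 3.10.9 and Python 3.11.15. The 9 alternatives tried for each result concern the pseudocount, the minimum, the scaling between the libraries and the handling of transcript rows.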

Additional observations from a re-analysis of the deposited data

How the results depend on the processing

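As deposited, 12 members were higher and 6 lower, with a median log2 ratio of 1.65 and a log2 ratio of summed FPKM of -0.18. The higher count stayed within 1.5 times of this, between 9 and 14, under the 9 alternatives. The 9 were of 18 members compared at a minimum of 10 FPKM, where 22.0% of all genes were higher. The lower count became 2 under centring on all genes, under 1 read set equal and under rescaling without Rn45s, Lars2, Mir6236 and Mir142b. Under these the higher count was 14, beside 40.2%, 40.2% and 41.5% of all genes. The lower count was 4 with a pseudocount of 5 and 5 at a minimum of 10 FPKM. The median was 3.13 and 0.93 with pseudocounts of 0.1 and 5, 1.20 at a minimum of 10 FPKM, 2.91 after centring, 2.38 with 1 read set equal, 2.69 after rescaling and 1.63 with the highest row per symbol. The log2 ratio of sums was -0.18 and -0.17 with those pseudocounts, -0.21 with the highest row, 1.09 after centring, 1.17 with 1 read set equal and 1.26 after rescaling. From recovered fragments of the 17 resolved members alone, an alternative chosen after seeing the data, the log2 ratio was -0.13 over all mapped fragments and 1.19 over those on resolved coding genes. The 5 members left out were listed only in the nucleolin IP, so the sign of the -0.13 is not settled for all members. Members at equal fragments changed sign from the low side under scaling: after centring Tyrobp was at 0.050, Spi1 at 6.3e-06, Mpeg1 at 0.10 and Cybb at 0.12. With 1 read set equal Tyrobp was at 0.11 and Spi1 at 0.023, and after rescaling Tyrobp was at 0.20, Spi1 at 0.11, Mpeg1 at 0.078 and Cybb at 0.076. The log2 ratio of Cd14, -0.62 as deposited, was 0.65, 0.72 and 0.82 under these 3 scalings. By construction, centring shifts every gene by the median of all genes, -1.27. Depth limits every member: 7 of the 17 resolved ones had at most 1 fragment a library. No paired analysis was possible because each group has 1 library and no result comes from a test.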
